A study of Mus musculus with 36 samples.

Results

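The genes described here are 9 genes that cause neuronal ceroid lipofuscinosis (NCL) when mutated and that were left intact in this mouse model: Ppt1, Cln3, Cln6, Mfsd8, Cln8, Dnajc5, Ctsf, Kctd7 and Atp13a2. They were taken by name, with Tpp1, Ctsd and Grn left out, from count tables of 55450 genes at 1 month, 53379 at 2 months and 54146 at 3 months. All 9 had enough counts to be tested at every age. The RNA of 2 regions, forebrain with midbrain (F/M) and cerebellum (Cb), was sequenced from Tpp1-/- mice, which carry a targeted Tpp1 allele in every cell, and from unaffected siblings of the same age born to heterozygous crosses. There were 3 libraries in each of the 12 groups of age (1, 2 and 3 months), region and genotype, so 36 in all. Each control was labelled wild type, except control replicate 3 of 1 month, which was Tpp1+/- in both regions. At 1 month replicate 1 of each group was female, at 3 months replicate 3 was female, and all others were male. The labels give no strain. The 3 ages were counted with different gene annotations, so age and processing cannot be told apart. The main tests were made within each age.

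The NCLs are inherited childhood or adult neurodegenerative diseases in which autofluorescent storage material collects in lysosomes, the acidic organelles that degrade proteins, lipids and sugars. The disease genes act at different places on one route. Lysosomal enzymes are made in the endoplasmic reticulum (ER), leave it with the help of cargo receptors, pass the Golgi and reach the lysosome, whose membrane holds transporters and channels. Tpp1 encodes tripeptidyl peptidase 1, a soluble lysosomal protease, and its loss causes the CLN2 form. Among the 9 genes, Ppt1 (palmitoyl-protein thioesterase 1, which takes fatty acids off proteins) and Ctsf (cathepsin F, a cysteine protease) encode soluble lysosomal enzymes. Cln3, Mfsd8 and Atp13a2 encode membrane proteins of lysosomes and endosomes, the last of them a polyamine-exporting ATPase. Cln6 and Cln8 encode ER membrane proteins that work together to send newly made enzymes towards the Golgi. Dnajc5 encodes cysteine string protein alpha, a co-chaperone on synaptic vesicles, and Kctd7 an adaptor of the cullin 3 ubiquitin ligase.

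In the GRCm38 coordinates of the 1-month count files the enzyme genes lie apart, Ppt1 (ENSMUSG00000028657, chr4:122836242-122859175, plus strand) and Ctsf (ENSMUSG00000083282, chr19:4855130-4860918, plus strand). The lysosomal membrane genes are Cln3 (ENSMUSG00000030720, chr7:126571207-126585817, minus strand), Mfsd8 (ENSMUSG00000025759, chr3:40818103-40846886, minus strand) and Atp13a2 (ENSMUSG00000036622, chr4:140986873-141007330, plus strand). The ER genes are Cln6 (ENSMUSG00000032245, chr9:62838785-62852006, plus strand) and Cln8 (ENSMUSG00000026317, chr8:14881335-14901720, plus strand). The remaining pair is Dnajc5 (ENSMUSG00000000826, chr2:181520485-181555133, plus strand) and Kctd7 (ENSMUSG00000034110, chr5:130144861-130155806, plus strand). All 9 are protein-coding genes, and the counts are reads over their exons. Exons of Ppt1, Cln3, Cln6 and Mfsd8 overlap another gene on the opposite strand, over at most 442 bases (Cln3 with Apobr), and the authors counted by strand.

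Many lysosomal genes carry near their start the E-box CACGTG, which is part of the longer element bound by TFEB, a transcription factor of lysosomal genes. The promoter windows of RefSeq (GRCm38.p6, 250 bases before to 50 after a gene's start) hold 7 of the 9 genes, and Cln8 and Dnajc5 have no entry. CACGTG, searched on both strands (the letters read the same on each), was found in the windows of Ctsf and Cln3 and in none of those of Ppt1, Cln6, Mfsd8, Kctd7 and Atp13a2. Of all 32851 windows, 7.15% held it, and 3.77% held TCACGTG, which contains it. Cln3 has 2 windows, and only that of its downstream start, inside the gene, held the motif. The stretches are shown because Ctsf was the gene that differed most between the regions and because Ctsd, a gene of the same disease group that rose in the Tpp1-/- mice, had the motif too. Grn, the other gene of the group that rose, had none in its window. The E-box is in capitals, and each is read 5′ to 3′ on the gene's own strand.
Ctsf, chr19:4855056-4855121, plus strand: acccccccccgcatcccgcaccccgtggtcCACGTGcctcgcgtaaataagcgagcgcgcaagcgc
Cln3, chr7:126583322-126583415, minus strand: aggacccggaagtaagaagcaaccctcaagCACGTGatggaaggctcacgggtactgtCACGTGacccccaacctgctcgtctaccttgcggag
Ctsd, chr7:142387890-142387955, minus strand: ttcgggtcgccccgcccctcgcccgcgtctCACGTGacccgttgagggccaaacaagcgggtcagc
Ctsd, chr7:142388037-142388077, minus strand: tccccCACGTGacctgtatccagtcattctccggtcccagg
The E-box of Ctsf begins 79 bases before the start and has neither a T before it nor an A after it. Those of Cln3 begin 149 and 121 bases before the downstream start, and each is followed by an A, which makes TCACGTG on the other strand. The E-box at 121 has a T before it as well, and that at 149 does not. Those of Ctsd begin 245 and 98 bases before its start, and each is followed by an A as well. Of these, that at 98 has a T before it too, and that at 245 does not. A match of letters is a description and not a measured binding site.

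The libraries held 10609896 to 29942380 counted reads. Tpp1 was lower in every Tpp1-/- library than in every control. Its fold change was 0.265, 0.230 and 0.394 in F/M and 0.243, 0.241 and 0.403 in Cb at 1, 2 and 3 months. The heterozygous controls had 46.6 and 55.9 CPM (read counts relative to library size, scaled by the TMM method). At 3 months Tpp1 ran from 42.1 to 43.4 CPM over the control F/M libraries and from 50.8 to 56.0 over those of Cb. These mice were labelled wild type, yet their levels were near those of the heterozygotes. In F/M the wild types of 1 month held 74.4 and 69.7 CPM, and those of Cb 89.5 and 87.8. At 2 months the control range was 91.5 to 94.8 for F/M and 110.1 to 110.8 for Cb. The cause of the lower control level at 3 months was not tested. The markers of cerebellum and forebrain went with the labelled regions. Summed midbrain and thalamus markers (10 genes) overlapped in controls of 2 months, at 241 to 272 CPM in Cb and 233 to 294 in F/M. At 3 months 2 Cb libraries stood apart, Tpp1-/- replicate 1 and control replicate 3, with summed choroid plexus markers of 1727 and 1532 CPM against 829 to 1008 in the other 4. Without either of them, no member was called in the comparison of genotypes there. The summed level of 10 cerebellar granule and Purkinje cell genes was 7143 to 9672 CPM in Cb against 294 to 372 in F/M, and that of the forebrain markers was 118 to 177 in Cb against 664 to 859 in F/M. In these bulk tissues, which hold many cell types, a lower level can mean fewer cells that express a gene or less RNA of it in each cell, and the 2 cannot be told apart.

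Levels of different genes were compared per kilobase of gene length, as FPKM (TMM-scaled CPM divided by the exon length in the file). Dnajc5, the synaptic vesicle co-chaperone, stood highest in both regions at every age, and Cln3 or Mfsd8 lowest. In control F/M of 2 months the levels were 60.1 ± 4.78 FPKM for Dnajc5, 32.7 ± 0.968 for Ppt1, 29.96 ± 5.49 for Ctsf and 22.6 ± 0.914 for Atp13a2 (mean ± SD, n = 3). Next came Cln6 at 4.29 ± 0.305, Cln8 at 3.96 ± 0.127, Kctd7 at 3.95 ± 0.546, Cln3 at 2.495 ± 0.330 and Mfsd8 at 2.40 ± 0.244 FPKM. A gap separated the first 4 genes from the other 5 in every control group. Among neighbours in that order Ppt1 and Ctsf overlapped, Cln6, Cln8 and Kctd7 overlapped one another in turn, and Cln3 overlapped Mfsd8. In control Cb of 2 months Ctsf, at 45.7 ± 1.96 FPKM, stood above Ppt1 at 37.2 ± 0.573 with no overlap, and Cln6, Kctd7 and Cln8 again overlapped in turn. At 3 months the order of the first 4 in Cb was again Dnajc5, Ctsf, Ppt1 and Atp13a2. At 1 month Ctsf stood at 11.8 ± 0.156 FPKM in F/M and 18.7 ± 1.19 in Cb, below Ppt1 in both. Its exon length there is 5041 bases against 1975 at 2 and 3 months, so its FPKM are not comparable between 1 month and the later ages. Its CPM were counted over these differing exons too, and the part of this in them was not tested.

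**Figure D1:**
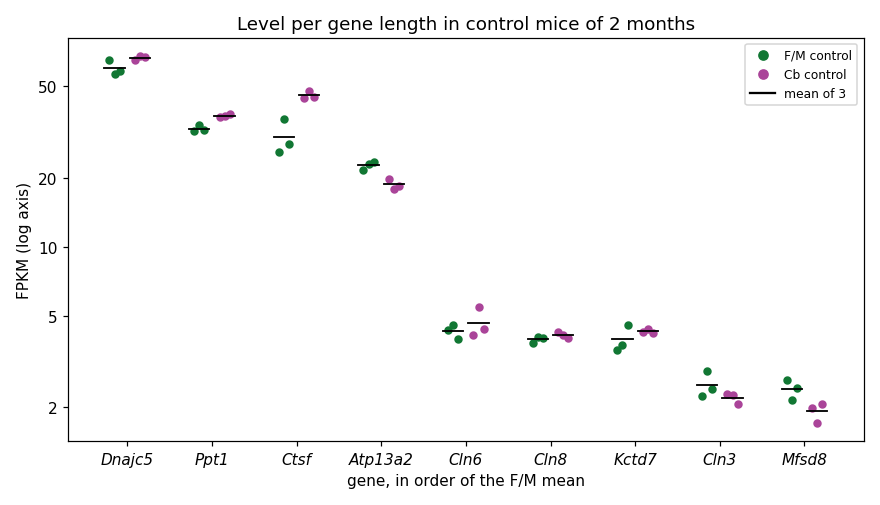
FPKM of the 9 genes (log axis) in the 3 control libraries of F/M (green) and of Cb (purple) at 2 months, with the mean as a bar. Dnajc5, Ppt1, Ctsf and Atp13a2 lie at 17.9 FPKM or more and the other 5 at 5.48 FPKM or less, and Ctsf lies higher in Cb.

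Across all 36 libraries the genes varied less than a typical gene. Over 16713 genes tested at every age the median range of log2 CPM from the lowest to the highest library was 1.34. Cln8 had a range of 0.28, narrower than all but 0.102% of those genes, and its CPM ran from 29.0 to 35.3. Ppt1 ranged over 0.42 and Dnajc5 over 0.49, with 1.19% and 3.26% of genes narrower. Ctsf had the widest range, 1.31, close to the median of all genes. These ranges hold differences between regions, ages and annotations as well as between mice, and counting error is wider in genes with few reads: Cln6 and Cln3 had 104 and 148 counts in their lowest library, Dnajc5 4595.

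**Figure D2:**
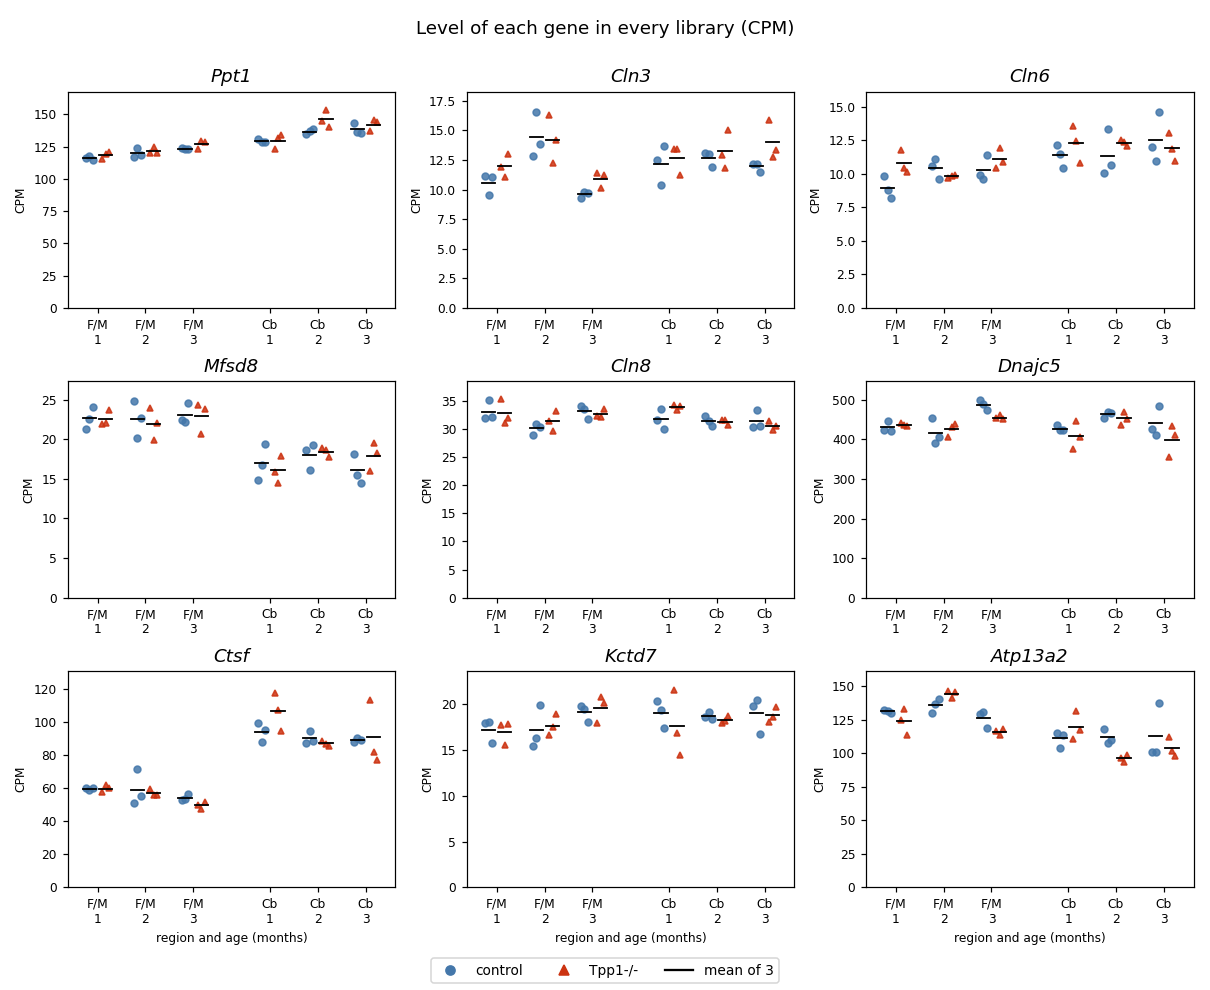
CPM of each gene in every library, by region and age in months, with controls as blue circles, Tpp1-/- as red triangles and the mean of 3 as a bar. Circles and triangles overlap in most pairs of groups, and the regions separate for Ctsf and Mfsd8.

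The first comparison asked whether loss of Tpp1 was accompanied by altered mRNA of the other NCL genes. None of the 9 was a differentially expressed gene (DEG; edgeR quasi-likelihood test, Benjamini-Hochberg adjusted p under 0.1 and fold change of at least 1.5) in either region at any age. Of all genes tested, 0.0112%, 0.737% and 0.464% were DEGs in F/M at 1, 2 and 3 months and 0.0112%, 2.05% and 0.859% in Cb. Without the fold minimum, Atp13a2 in Cb of 2 months was the only member that passed, where 0.0112%, 3.17% and 0.488% of all genes passed in F/M and 0.0112%, 3.08% and 0.952% in Cb. An unadjusted p under 0.05 was reached by Cln6 in F/M of 1 month and by Atp13a2 in Cb of 2 months and in no other pair of gene and comparison among 54. DESeq2 and limma-voom, at the same adjusted p, also called Atp13a2 in that comparison and no member elsewhere. The largest of the 54 log2 fold changes was 0.27, a fold of 1.21, and 28 of 54 were above 0.

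The intervals give the range of changes that the 3 libraries of a group leave possible. The standard error of a member's log2 fold change was 0.058 to 0.13, with a median of 0.095, and in all 54 cases the 95% interval lay within 1.5-fold in both directions. Over all genes tested, 67.3%, 70.5% and 64.5% of intervals did so in F/M and 63.0%, 71.4% and 64.3% in Cb. The intervals are not adjusted for the number of genes. The median log2 fold change of the 9 lay between -0.016 and 0.055 in the 6 comparisons, and that of all genes between -0.0038 and 0.0061.

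**Figure D3:**
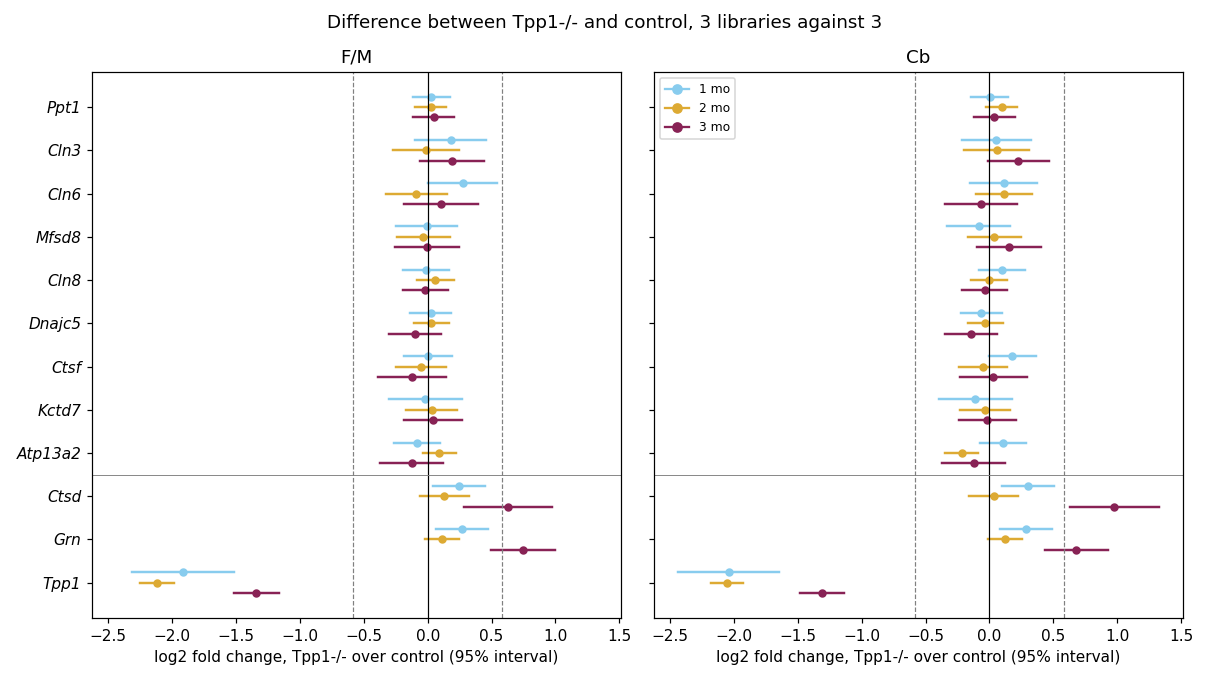
Log2 fold change of Tpp1-/- over control (points) with its 95% interval (lines) at 1, 2 and 3 months in F/M (left) and Cb (right), for the 9 genes above the grey line and for Ctsd, Grn and Tpp1 below it; dashed lines mark 1.5-fold. Every interval of the 9 genes lies between the dashed lines, while Tpp1 is far to the left at all ages and Ctsd and Grn lie to the right at 3 months.

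Of the soluble enzymes, Ppt1 was the most precisely measured. In F/M of 3 months its CPM were 123.8, 122.85 and 122.95 in the controls and 124, 129.7 and 129 in the Tpp1-/- mice, and the groups overlapped. Its largest difference was in Cb of 2 months, with 135, 137 and 139 CPM in controls and 145, 153 and 140.5 in Tpp1-/- mice. There each Tpp1-/- library was above each control, yet the log2 fold change of 0.096 ± 0.058 (SE) had an adjusted p of 0.676 (edgeR). Over the 6 comparisons the Ppt1 estimates ran from 0.002 to 0.096, all above 0, and the intervals together spanned 0.906-fold to 1.16-fold.

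Ctsf, the cathepsin F gene, had 99.7, 87.8 and 95.1 CPM in control Cb of 1 month and 118, 108 and 94.6 in Tpp1-/- Cb, and the groups overlapped (log2 fold change 0.18 ± 0.086, adjusted p 0.630, edgeR). Without Tpp1-/- replicate 3, the library that overlapped the controls, the log2 fold change was 0.27 with an adjusted p of 0.0772, still below 1.5-fold. In Cb of 3 months it had 87.7, 90.3 and 88.9 CPM in controls and 114, 82.1 and 77.0 in Tpp1-/- mice. Replicate 1 of the Tpp1-/- group stood above all 3 controls and the other two below them, and the log2 fold change of 0.032 ± 0.12 became -0.16 without it (adjusted p 0.992 and 0.276). The same library had a summed choroid plexus marker level of 1727 CPM against 829 and 854 in the other two, and the part of this in the Ctsf value was not tested. In F/M of 3 months Ctsf had 52.8, 53.3 and 56.2 CPM in controls against 49.9, 47.3 and 51.7, with no overlap but an adjusted p of 1.00.

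Cln3, whose product is a lysosomal membrane protein with several membrane spans, had positive estimates in 5 of 6 comparisons, none of which passed the test. At 3 months its CPM in Cb were 12.2, 12.2 and 11.5 in controls and 15.9, 12.8 and 13.3 in Tpp1-/- mice, without overlap, and the log2 fold change was 0.23 ± 0.11 (adjusted p 0.789, edgeR). The F/M libraries of 3 months did not overlap either, at 9.33, 9.76 and 9.71 against 11.4, 10.1 and 11.3 CPM, with 0.19 ± 0.12 and an adjusted p of 0.993. With 9.33 to 16.6 CPM over the 36 libraries Cln3 rests on few reads, and at 2 months the F/M values ran from 12.2 to 16.6 CPM over both genotypes. Mfsd8, a lysosomal membrane protein of the major facilitator superfamily, overlapped between genotypes in all 6 comparisons, and its estimates ran from -0.085 to 0.16.

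The ER genes showed no common direction. Cln6 in F/M of 1 month had 9.87, 8.77 and 8.22 CPM in controls and 11.8, 10.4 and 10.2 in Tpp1-/- mice, and every Tpp1-/- library was above every control. Its log2 fold change of 0.27 ± 0.13 was the largest of the 54, with an unadjusted p of 0.0471 and an adjusted p of 1.00 (edgeR). The lowest of those controls, replicate 3, was the heterozygous library, and without it the estimate was 0.22 with an unadjusted p of 0.160. At 2 and 3 months the Cln6 estimates in F/M were -0.089 and 0.10. Cln8, the steadiest gene, overlapped between genotypes in all 6 comparisons, with estimates from -0.038 to 0.097.

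Neither Dnajc5 nor Kctd7, the genes that act outside the lysosome and the ER, passed the test. In control F/M of 3 months Dnajc5 stood at 499, 489 and 475 CPM, and in Tpp1-/- F/M at 454, 461 and 451, all 3 below the controls (log2 fold change -0.098 ± 0.094, adjusted p 1.00, edgeR). In Cb of the same age it had 426, 412 and 485 against 355, 433 and 411 CPM, with overlap, and a log2 fold change of -0.14 ± 0.094. The summed level of 6 neuron markers was 6776 to 6935 CPM in control and 6504 to 6743 in Tpp1-/- F/M of 3 months, and its part in the Dnajc5 values was not tested. Kctd7, the ubiquitin ligase adaptor, overlapped between genotypes in all 6 comparisons, with estimates from -0.11 to 0.038.

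Counted over the 9 genes, groups of 3 libraries without overlap were seen for 1, 1 and 4 genes in F/M at 1, 2 and 3 months and for 0, 2 and 1 in Cb. Over all genes tested 14.8%, 18.3% and 24.1% did not overlap in F/M and 7.97%, 18.1% and 8.67% in Cb. The 4 genes in F/M of 3 months were Cln3, higher in the Tpp1-/- libraries, and Dnajc5, Ctsf and Atp13a2, lower. In that comparison oligodendrocyte markers summed to 6121 to 6346 CPM in controls and 5141 to 5771 in Tpp1-/- mice, and midbrain and thalamus markers to 314 to 326 and 239 to 271. Microglia markers summed to 266 to 277 in controls and 302 to 332 in Tpp1-/- mice, and astrocyte markers to 6847 to 6997 and 7054 to 7667. Cerebellar markers summed to 344 to 372 and 306 to 336. Whether these shifts had a part in the 4 differences was not tested.

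Atp13a2 was the one member with a difference that passed an adjusted test. In Cb of 2 months it had 118, 108 and 110.4 CPM in controls and 96.5, 93.6 and 99.1 in Tpp1-/- mice, so that all 3 Tpp1-/- libraries lay below all 3 controls. The log2 fold change was -0.22 ± 0.061 (95% interval -0.35 to -0.090, adjusted p 0.0771, edgeR), a fold of 0.860, which is smaller than the 1.5-fold set for a DEG. In F/M of the same age the order was the other way round, with 129.8, 137 and 141 CPM in controls and 147, 141 and 146 in Tpp1-/- mice, without overlap, and 0.092 ± 0.060 (adjusted p 0.473). The edgeR interaction test of region and genotype gave -0.31 ± 0.086 with an adjusted p of 0.0776, under the 0.1 used for such differences, and 2.97% of all genes passed it. None of the 9 passed at 1 or 3 months by edgeR, DESeq2 or limma-voom, or had an unadjusted p under 0.05, where 0.0% and 0.00581% of genes passed.

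Markers of midbrain and thalamus moved in the same 2 directions in these libraries. Their 10 genes summed to 241 to 272 CPM in control Cb and 147 to 178 in Tpp1-/- Cb of 2 months, and to 233 to 294 and 316 to 347 in F/M. Choroid plexus markers (10 genes) summed to 978 to 1275 CPM in control and 1600.1 to 1785 in Tpp1-/- Cb. Markers of other cells were also apart in F/M, where astrocyte markers summed to 4660.2 to 5630.1 CPM in controls and 5932 to 7322 in Tpp1-/- mice. Neuron markers summed there to 6531 to 6577 CPM in controls and 5384 to 6428 in Tpp1-/- mice, and forebrain markers to 842 to 859 and 727 to 789. The part of all these markers in the Atp13a2 result was not tested. Atp13a2 in Cb had 115, 104 and 114 CPM in controls and 111, 131 and 117 in Tpp1-/- mice at 1 month, and 101, 101 and 137 and 112, 102 and 97.8 at 3 months. The groups overlapped at both ages. The call at 2 months depended on single libraries: leaving out any one of the 6 Cb libraries gave adjusted p of 0.109 to 0.311, with log2 fold changes of -0.25 to -0.18, and the test of the region difference passed without F/M control replicate 2, F/M Tpp1-/- replicate 2 or Cb control replicate 2 and failed without any one of the other 9 libraries (adjusted p up to 0.221). Library totals, no filter and the replicate block ended the genotype call in Cb too (adjusted p 0.102, 0.197 and 0.122), and also the call of the region difference.

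To lower the error, the effect of genotype was averaged over the 3 ages in one fit of all 36 libraries. No member passed an adjusted p of 0.1 or had an unadjusted p under 0.05 in F/M or Cb by edgeR, and DESeq2 and limma-voom called none, where 0.327% and 1.65% of all genes passed by edgeR. The mean log2 effects of the 9 lay between -0.058 and 0.12 for F/M and between -0.078 and 0.12 for Cb, and all 18 intervals were within 1.5-fold. Cln3 had the highest mean in both regions, 0.12 ± 0.071 in F/M and 0.12 ± 0.070 in Cb. The difference of the effect at 3 months from the mean of that at 1 and 2 months, which the change of annotation between ages could touch, was called for none of the 9 by any of the 3 tools, and none had an unadjusted p under 0.05. It was called for 0.246% of genes in F/M and 0.977% in Cb. Tpp1 itself was among them, with log2 differences of 0.68 in F/M and 0.74 in Cb (adjusted p 0.0772 and 0.00963, edgeR).

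Among the other genes of the same disease group, Ctsd and Grn were DEGs at 3 months. Ctsd, which encodes cathepsin D, had 135, 145 and 151 CPM in control Cb of 3 months and 388, 219 and 241 in Tpp1-/- Cb, and rose 1.97-fold (log2 0.98 ± 0.16, adjusted p 0.0103, edgeR). Grn, the progranulin gene, had 35.1, 33.8 and 43.2 against 68.3, 55.3 and 56.2 CPM there and rose 1.604-fold (adjusted p 0.0122), and in F/M of 3 months it rose 1.68-fold (adjusted p 0.00909). Ctsd in F/M had 163, 164 and 152 CPM in controls and 244, 244 and 252 in Tpp1-/- mice, without overlap, and an adjusted p of 0.210, or 0.0360 by DESeq2. In Cb of 3 months the 95% interval was 0.63 to 1.32 for Ctsd and 0.43 to 0.93 for Grn, and the highest upper bound among the 9 was that of Cln3, 0.47. Without Tpp1-/- replicate 1, the log2 fold change of Ctsd in Cb was 0.68 (adjusted p 1.13e-04). Both calls in Cb were lost when the 6 libraries of the comparison were fitted alone, with adjusted p of 0.241 for Ctsd and 0.229 for Grn. Microglia markers (8 genes) summed to 84.3 to 98.6 CPM in controls and 146 to 203 in Tpp1-/- Cb of 3 months, and to 266 to 277 and 302 to 332 in F/M. Astrocyte markers (7 genes) in Cb summed to 5671 to 5815 and 6162 to 6443. The part of these markers in the values of Ctsd and Grn was not tested.

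Lists of other lysosomal genes give the setting for the 9. Of 35 soluble lysosomal enzymes, 5 were DEGs in Cb of 3 months, where 0.859% of all genes were, all higher, among them Ctss, Ctsc, Hexa and Ctsh, with log2 fold changes of 1.44, 0.87, 0.69 and 0.75. Ctss, a cathepsin known from microglia, was the only one in F/M of 3 months (0.86), and none of the 35 was a DEG at 1 or 2 months. The microglia markers given above were higher in Tpp1-/- Cb of 3 months, 5 of 8 with an adjusted p under 0.1 and 0 of 8 in F/M, and their part in these values was not tested. The median log2 fold change of the 35 was 0.080, 0.054 and 0.13 in F/M and 0.15, 0.041 and 0.12 in Cb at 1, 2 and 3 months, the last beside -0.016 for the 9 NCL genes and -0.0027 for all genes. Of 18 lysosomal membrane proteins none was a DEG in the 6 comparisons of genotype, and in these Npc1 alone passed the adjusted p without the fold minimum, in F/M of 2 months (0.26, adjusted p 0.0954). Gaa did so among the enzymes, lower in Cb of 2 months (-0.28, adjusted p 0.0370). In the mean effect over the 3 ages, Cd63, a tetraspanin of late endosomes and lysosomes, was higher in Cb (0.38, adjusted p 0.0112). None of 19 genes of egress from the ER and delivery to the lysosome, of 16 tested of 18 relatives and partners of the 9, or of 4 tested of 5 regulators of lysosomal genes passed in any of the 6 comparisons.

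The second comparison set Cb against F/M in the control mice. Ctsf was the single member that differed by 1.5-fold or more, and it did so at all 3 ages, higher in Cb. At 1 month the F/M controls held 60.1, 58.7 and 59.9 CPM and the Cb controls 99.7, 87.8 and 95.1, a log2 fold change of 0.66 ± 0.087 (adjusted p 1.08e-05, edgeR). At 2 months it had 50.8, 71.4 and 55.3 against 87.6, 94.7 and 88.5 CPM (0.61 ± 0.091, adjusted p 9.91e-06), and at 3 months 52.8, 53.3 and 56.2 against 87.7, 90.3 and 88.9 (0.72 ± 0.12, adjusted p 2.18e-04). Over all 36 libraries, Tpp1-/- mice included, F/M held 47.3 to 71.4 CPM and Cb 77.0 to 118, with no overlap. Such regional differences were common: 36.9%, 39.3% and 37.7% of all genes passed the same rule. At 2 months the fold minimum was met narrowly, since without F/M control replicate 1 or 3 or Cb control replicate 2 the log2 fold change was 0.53, 0.56 and 0.57, under 1.5-fold, with adjusted p of at most 4.74e-04 over all alternatives.

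Mfsd8 was lower in Cb at every age, by less than 1.5-fold. At 1 month F/M controls stood at 21.4, 22.5 and 24.0 CPM and Cb controls at 14.9, 16.8 and 19.5. The levels were 24.8, 20.2 and 22.7 in F/M against 18.6, 16.1 and 19.3 in Cb at 2 months and 22.4, 22.1 and 24.6 against 18.2, 15.5 and 14.5 at 3 months. No F/M control lay as low as a Cb control of its age. The log2 fold changes were -0.41 ± 0.11, -0.33 ± 0.097 and -0.52 ± 0.12, with adjusted p of 0.00651, 0.00655 and 0.00188 (edgeR). Over the 36 libraries F/M held 19.9 to 24.8 CPM and Cb 14.5 to 19.5, again without overlap. Without Cb control replicate 1 of 3 months the difference at that age was -0.62, past 1.5-fold.

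**Figure D4:**
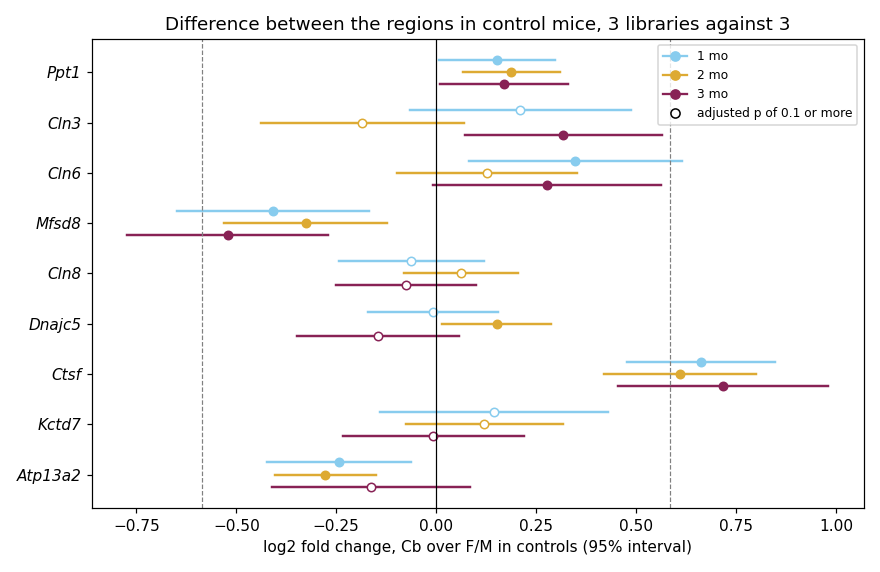
Log2 fold change of Cb over F/M in control mice (points) with its 95% interval (lines) at 1, 2 and 3 months; filled points have an adjusted p under 0.1 and dashed lines mark 1.5-fold. Ctsf lies to the right of the dashed line at the 3 ages, Mfsd8 to the left of 0, and Cln3 changes side at 2 months.

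Smaller regional differences were seen in the other genes. At each age 5 of the 9 passed the adjusted p of 0.1 with no fold minimum, beside 59.4%, 70.1% and 57.8% of all genes, and 5, 4 and 4 of the 9 did not overlap between the regions, beside 65.9%, 67.6% and 63.6%. Ppt1 was higher in Cb at the 3 ages, with log2 fold changes of 0.15 ± 0.068, 0.19 ± 0.058 and 0.17 ± 0.075 and adjusted p of 0.0714, 0.00843 and 0.0742. At 1 month, where same-numbered libraries of the regions deviated together, a replicate block raised the adjusted p of Ppt1 to 0.114. At 1 month leaving out any one of the 6 libraries ended this call (adjusted p 0.102 to 0.173), and at 3 months leaving out any but Cb control replicate 3 did (up to 0.220). With no filter on low counts the adjusted p of Ppt1 was 0.280 at 1 month and 0.363 at 3 months, and RLE size factors gave 0.102 and 0.141. At 2 months, with 117, 124 and 119 CPM in F/M and 135, 137 and 139 in Cb, it held in each case. Atp13a2 was lower in Cb at 1 and 2 months (-0.24 ± 0.084 and -0.28 ± 0.060, adjusted p 0.0245 and 5.45e-04), the former lost without Cb control replicate 2 (adjusted p 0.109). At 3 months its Cb controls had 101, 101 and 137 CPM, replicate 3 stood apart, and the difference of -0.16 ± 0.12 had an adjusted p of 0.256, which became 0.00468 with -0.33 without that library.

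Cln6 was higher in Cb at 1 month (0.35 ± 0.13, adjusted p 0.0288, edgeR) and at 3 months (0.28 ± 0.13, adjusted p 0.0981), with 0.13 ± 0.11 and an adjusted p of 0.313 at 2 months. The call at 1 month was lost without F/M control replicate 3 (adjusted p 0.116) or Cb control replicate 1 (0.108), and that at 3 months under several other settings, among them DESeq2 (0.158), limma-voom (0.112) and leaving out F/M control replicate 1 or 2 or Cb control replicate 1 or 3 (up to 0.334). Cln3 was higher in Cb at 3 months (0.32 ± 0.11, adjusted p 0.0322), while its estimates were 0.21 at 1 month and -0.19 at 2 months, with adjusted p of 0.189 and 0.188. These passed without Cb control replicate 2 of 1 month (0.32, adjusted p 0.0701) and without F/M control replicate 1 of 2 months (-0.24, adjusted p 0.0962). The Cln3 call was lost without F/M control replicate 1 (adjusted p 0.105) and with no filter on low counts (0.138). Dnajc5 passed at 2 months (0.15 ± 0.065, adjusted p 0.0504), but not without replicate 2 or 3 of either region (up to 0.159). Its estimates at 1 and 3 months, -0.0089 and -0.14, had adjusted p of 0.933 and 0.219. That of 3 months passed without Cb control replicate 3 (-0.22, adjusted p 0.0475) and with the 6 control libraries alone (adjusted p 0.0972), in the direction opposite to that of 2 months. Cln8 and Kctd7 passed at no age, and their 95% intervals lay between -0.25 and 0.43. Without F/M control replicate 3 of 2 months Kctd7 passed, at 0.24 (adjusted p 0.0378). Whether the region differences changed with age was not tested, since the ages were counted with different annotations. In the controls of the 3 ages the microglia markers summed to 80.4 to 104 CPM in Cb against 239 to 290.5 in F/M. Neuron markers summed to 5009.8 to 5864 in Cb against 5964 to 6935 in F/M, and neither list overlapped. Choroid plexus markers (10 genes) summed to 978 to 1275 CPM in Cb against 246 to 633 in F/M at 2 months. At 3 months they summed to 958 to 1532 against 617 to 777, and at 1 month the regions overlapped. The part of all these markers in the region differences was not tested.

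The lists of lysosomal genes, counted in the same way at 1, 2 and 3 months (adjusted p under 0.1, edgeR), went in both directions between the regions. Of all genes, 59.4%, 70.1% and 57.8% passed that rule. Of the 35 soluble enzymes, 6, 9 and 3 were higher in Cb and 11, 15 and 11 lower, with median log2 fold changes of -0.052, -0.093 and -0.074. Manba and Idua, which encode glycosidases, were among those higher at every age, and Hexa and Ctss among those lower. Of the 18 membrane proteins, 9, 9 and 8 were higher in Cb and 4, 3 and 3 lower (medians 0.22, 0.13 and 0.20), with Lamp1 and the channel gene Tpcn1 higher at every age. Ostm1, the partner of a lysosomal chloride transporter, was lower like Mfsd8. Of the 19 genes of ER egress and delivery, 4, 7 and 3 were higher in Cb and 6, 7 and 6 lower (medians -0.0092, -0.025 and -0.12).

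Finally, each gene was compared with the 16713 genes tested at every age by Pearson's r of log2 CPM over the 36 libraries, after the mean of the 12 libraries of an age was subtracted. Many of the libraries share a region, an age and a genotype, so r is a description. The highest were Selenom (r = 0.980) and Fndc5 (0.978) for Ctsf, Pola1 (r = 0.929) and Brd7 (0.926) for Ppt1, Isyna1 (r = 0.929) and Map1s (0.925) for Atp13a2 and Zfr (r = 0.920) and Spred1 (0.919) for Mfsd8. For Dnajc5 they were Ppp1r7 (r = 0.895) and Glg1 (0.885), for Cln6 Bckdk (r = 0.835) and Zfp346 (0.810) and for Cln3 Miip (r = 0.782) and Dpp7 (0.780). Kctd7 and Cln8 had lower values, Cdkn2aip (r = 0.688) and Insig1 (0.681) for the former and Itgb1 (r = 0.575) and Wdr63 (0.572) for the latter. Within the 18 F/M and the 18 Cb libraries alone Pola1 had r of 0.646 and 0.546 with Ppt1, and Selenom had 0.756 and 0.871 with Ctsf, both lower than over all 36. Other pairs were higher within one region, with 0.885 for Miip and Cln3 in F/M, 0.937 for Glg1 and Dnajc5 in Cb and 0.878 for Bckdk and Cln6 in Cb. Among the 9 genes the highest r was 0.800, between the enzyme genes Ppt1 and Ctsf, and the lowest -0.886, between Ctsf and Mfsd8. Cln6 and Cln8, whose products work together in the ER, had r = -0.102.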

How the data were processed

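Total RNA of the 36 samples was made into stranded poly(A) libraries with the TruSeq kit and sequenced as 50-nucleotide single-end reads. The authors aligned the reads to mouse GRCm38 (mm10) with STAR 2.5.2b and deposited, per gene, raw counts made with featureCounts, whole numbers with no normalization. Per the file headers, 1 month used featureCounts 1.6.3 with GENCODE M21 and strand setting 1, 2 months 1.6.2 with M16 and setting 2, and 3 months 1.6.2 with M18 and setting 1. Although fractional counts of multi-mapped reads are named there, all values were whole. The labels name one stranded kit although the strand settings differ, and the members' levels were of like size under both settings.

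Groups came from the sample labels, and the methods call the 3 libraries of a group biological triplicates, so p-values reflect the spread between these mice. Members and lists were chosen with earlier results of these data known. In R 4.3.3, genes passing edgeR's filterByExpr (17916, 17229 and 17224) were fitted with the 12 libraries of their age (edgeR 4.0.16, TMM, quasi-likelihood F test, two-sided), with contrasts of genotype in each region, of region in controls and of their interaction. One fit of the 36 libraries in 12 groups, over 18322 genes, gave the mean effect and the difference of 3 months. P values were adjusted over all genes tested. Genes with at least 1.5-fold change and an adjusted p below 0.1 were taken as DEGs. Differences of effects had no fold minimum. The named genes are the 9 members, Tpp1, Ctsd and Grn, and the 2 genes most correlated with each member. Genes of the lists are named where they passed the test, and the examples between regions were picked after their values were seen. Some genes of the lists are not reported here by name. The fit was tested on simulated data. Figures used Python 3.11.15 and matplotlib 3.10.9.

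Alternatives were RLE size factors, library totals, DESeq2 1.42.0, limma-voom (limma 3.58.1), no filter, a replicate block, sex as a covariate, the 6 libraries of a comparison alone, no fold minimum, CPM not divided by length, controls only for the correlations, and each library left out in turn. Replicate numbers are shared by the groups. The labels do not say whether same-numbered F/M and Cb libraries come from the same mouse, though sex and genotype labels match by number. The main fits treated all libraries of an age as separate. Same-numbered libraries deviated together, with every correlation over 0.1 (0.124 to 0.198), only between F/M and Cb controls of 1 month.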

Additional observations from a re-analysis of the deposited data

Results flagged for a closer look

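Atp13a2 had an effect of genotype that differed between the regions at 2 months, by -0.31 on the log2 scale in Cb relative to F/M (edgeR interaction test, adjusted p 0.0776). All 3 Tpp1-/- libraries lay below the controls in Cb and all 3 above them in F/M. The markers of midbrain and thalamus shifted the same way in these libraries, and their part in the result was not tested. The call was lost with library totals, with no filter, with the replicate block and without any one of 9 of the 12 libraries. With 3 libraries in a group, single libraries were not tested for standing apart.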

How the results depend on the processing

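The 16 counts of called members were recomputed under each alternative, which gave 276 values, of which 256 stayed within 1.5 times the reported count. Most of the 16 counts were 0, and a count of 0 stays within that limit only by staying 0. No called difference of a member changed direction under any alternative. With no fold minimum the counts for Cb against F/M in controls became 5, 5 and 5 at 1, 2 and 3 months, in place of 1 each, and that for Tpp1-/- against control in Cb of 2 months became 1. For the region difference of the Tpp1-/- effect at 2 months, the count of 1 became 0 with library totals, with no filter and with the replicate block, and 0 to 1 with single libraries left out. Leaving out libraries gave 0 to 1 for Cb against F/M at 2 months and 1 to 2 at 3 months. The cause was not tested. For genotype at 2 months the numbers did not pair the samples by the check, and the replicate block gave Atp13a2 in Cb an adjusted p of 0.122, as library totals gave 0.102 and no filter 0.197. Per length and per CPM, the ranks of the members differed for 12 of 18 gene and region pairs in controls of 2 months.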

Other observations

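Of 16 tested relatives and partners of the 9 genes, 8, 11 and 7 differed between the control regions at 1, 2 and 3 months (edgeR, adjusted p under 0.1), and 3, 3 and 2 of 4 tested regulators of lysosomal genes, beside 59.4%, 70.1% and 57.8% of all genes. The genes named here passed at all 3 ages. Ppt2, the relative of Ppt1, was higher in Cb, with log2 fold changes of 1.18, 0.37 and 1.04 at 1, 2 and 3 months, and so were Atp13a4, of the family of Atp13a2, at 0.70, 0.76 and 0.91, and Ctsw, a cathepsin, at 3.33, 1.54 and 3.06. Of the genes of the same family as Kctd7, Kctd5 was higher in Cb (0.38, 0.44 and 0.45) and Kctd10 lower (-0.37, -0.48 and -0.46). Among regulators of lysosomal genes Tfeb (0.63, 0.86 and 0.93) and Zkscan3 (0.46, 0.44 and 0.67) were higher in Cb. The ages were counted with different annotations and strand settings, and the part of this in the differing sizes was not tested.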
